A study of Mus musculus with 4 samples.

Results

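The genes described are the 4 mouse stathmins (Stmn1, Stmn2, Stmn3 and Stmn4), the microtubule-associated proteins Map1a, Map1b and Map2, the tau gene Mapt, and the collapsin response mediators Dpysl2 and Dpysl3. They were listed by name, with no threshold on a measured value, and matched by symbol to the Entrez identifiers of the expression tables. All 10 were found among the 17667 genes listed in at least 1 library, and all 10 were among the 14156 genes that passed the filter on low counts. The genes were measured by RNA-seq of sympathetic ganglia (SG) from thoracic levels T1–T4, which send nerves to interscapular brown fat. There were 4 libraries, all from C57BL/6 mice aged 12 weeks that had spent 1 day at 5 °C, each library being a pool of ganglia from several mice. A pair of libraries carried the genotype WT (WT_1 and WT_2). A single library was labelled TRKC+/-, for mice with 1 intact copy of the gene for TRKC, the receptor of neurotrophin 3 (NT-3). A single library was labelled AdNTF3-Tg, for mice whose NT-3 coding sequence is driven by the adiponectin promoter, so that the added NT-3 is meant to be made in adipocytes and not in the ganglia themselves. The cold exposure was common to every library, and no library from mice kept warm was analysed here. The labels do not say which WT library belongs to which mutant line, so both served as the control of each mutant, and ratios to each WT library are given as well. As each line had WT controls of its own, the WT libraries may also differ by line or litter, which cannot be told apart from other differences between the pools.

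Microtubules are hollow polymers of tubulin that carry transport along axons and give them their shape. Stathmins bind free tubulin and favour disassembly, whereas the structural microtubule-associated proteins (MAP1A, MAP1B, MAP2 and tau) bind along the polymer, stabilize it and space it from its neighbours. Collapsin response mediator proteins bind tubulin and actin in growth cones and take part in the response of axons to guidance cues. Sympathetic neurons keep long axons to their target tissues throughout life and are rich in all these proteins. The comparisons asked whether the mRNA of these genes differed in SG when NT-3 was overproduced in fat or when 1 copy of its receptor was lost.

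Each library held between 8665955 and 8894985 reads on genes, and between 16277 and 16587 genes were listed. The library labelled TRKC+/- did not show a lower level of Ntrk3, the gene for TRKC. Ntrk3 had 78 reads in WT_1, 83 in WT_2, 91 in the library labelled TRKC+/- and 76 in AdNTF3-Tg, and its log2 fold change (log2FC) in the library labelled TRKC+/- against WT was 0.15 (95% interval -0.41 to 0.72, adjusted p = 0.999 by edgeR's quasi-likelihood test). The gene count sums all isoforms and cannot show the loss of a part of the transcript. The paper reports a lower expression of Trkc in SG of TRKC+/- mice than in those of their WT littermates. Ntf3, the gene for NT-3, had 2 reads in the library labelled TRKC+/- and no entry in the rest. All 12 sympathetic neuron markers were present, led by Th (tyrosine hydroxylase) at 2576.13 to 2752.52 FPKM (fragments scaled to the length of the transcript and the depth of the library). Across all genes, no gene was called at an adjusted p of 0.05 in AdNTF3-Tg against WT (832 at an unadjusted p under 0.05; 0 called and 62 at an unadjusted p under 0.05 by DESeq2), and 1 gene, Ucp1, was called in the library labelled TRKC+/- against WT (2 by DESeq2, Npcd and Ucp1) and in AdNTF3-Tg against the library labelled TRKC+/-; these were named after their values were seen. Both calls of Ucp1 were lost without the filter on low counts, where 0 genes were called. Ucp1, the uncoupling protein of brown adipocytes, had 47.33 and 48.14 FPKM in WT_1 and WT_2, 7.80 in the library labelled TRKC+/- and 37.81 in AdNTF3-Tg.

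All 10 members were readily detected, with at least 670 reads in every library. Together they took 0.745% and 0.768% of the reads of WT_1 and WT_2, 0.737% in the library labelled TRKC+/- and 0.793% in AdNTF3-Tg. By mean FPKM, a level per transcript length, they were ordered Stmn2, Stmn3, Stmn1, Map1b, Dpysl3, Mapt, Map1a, Stmn4, Dpysl2 and Map2. Stmn2 ranked 26 and Stmn3 ranked 51 of the 17667 genes, and the lowest member, Map2, still ranked 2063. Of the 9 neighbouring pairs in this order, 7 did not overlap in their ranges over the 4 libraries. The ranges of Mapt and Map1a overlapped, as did those of Dpysl2 and Map2, so the order within these pairs did not stand out from the spread between libraries. The highest FPKM of a member was between 1.05 times (Stmn2) and 1.29 times (Map1a and Map2) its lowest.

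**Figure D1:**
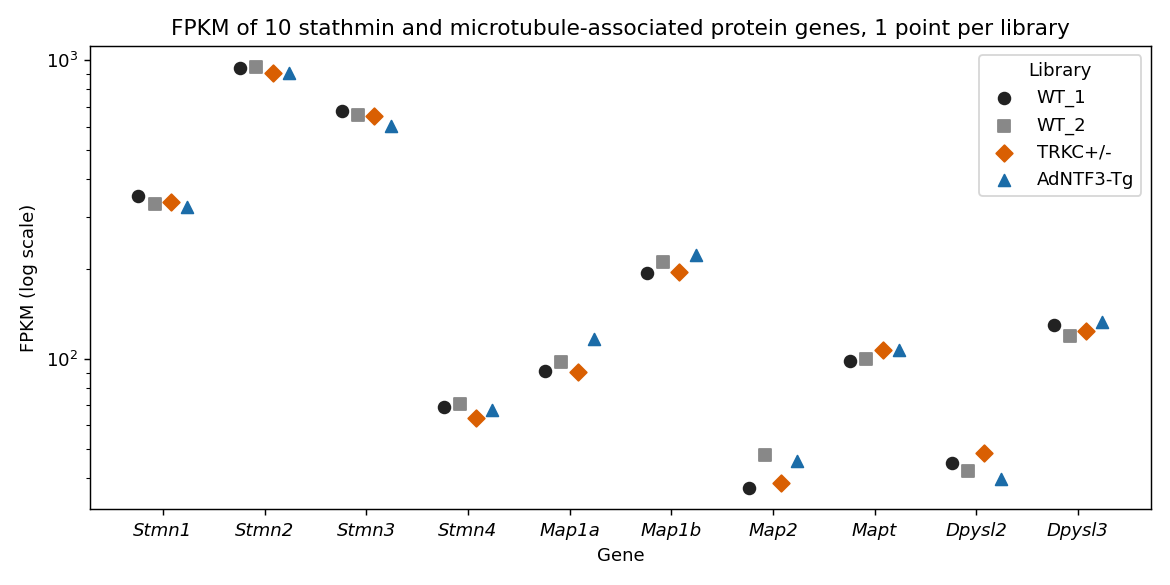
FPKM (log axis) of each of the 10 genes, with 1 point for each of the libraries WT_1, WT_2, TRKC+/- and AdNTF3-Tg and no error bars, since each point is 1 library. Stmn2 and Stmn3 lie highest and Dpysl2 and Map2 lowest, and the AdNTF3-Tg point of Map1a, at 117.09 FPKM, lies above the other libraries, which span 90.55 to 97.76.

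No member was called by the edgeR test in any comparison. In AdNTF3-Tg against WT, 0 of 10 members were called at an adjusted p of 0.05, where 0% of all genes were. In the library labelled TRKC+/- against WT, 0 of 10 were called, where 0.00706% of all genes were, and the same held for AdNTF3-Tg against the library labelled TRKC+/- (0 of 10, 0.00706% of all genes). DESeq2 also called none of the members. By size alone, 0 of 10 members reached an absolute log2FC of 0.5 in AdNTF3-Tg against WT, a cutoff passed by 10.1% of all genes tested. The count was 0 of 10 in the library labelled TRKC+/- against WT (7.30% of all genes), 0 of 10 in AdNTF3-Tg against the library labelled TRKC+/- (12.0%), and 0 of 10 between WT_1 and WT_2 (12.1%). The median log2FC of the members was 0.02 in AdNTF3-Tg against WT and -0.05 in the library labelled TRKC+/- against WT, where the medians over all genes were -0.0013 and -0.0019. The first value turned on the control, at -0.05 without WT_1 and 0.00 without WT_2. Because the spread came from the pair of WT pools alone (1 residual degree of freedom), each mutant library was assumed to vary like the WT libraries, and a p above the threshold does not show that levels were alike.

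Stmn2, Stmn3 and Stmn1 were the most abundant of the members, whereas Stmn4 was among the lower ones. The summed level of the 4 stathmins was 2040 FPKM in WT_1, 2005 in WT_2, 1957 in the library labelled TRKC+/- and 1899 in AdNTF3-Tg, so that both mutant libraries lay below both WT libraries. Each stathmin kept its place within this sum: Stmn2 made up 46.2% to 47.7% of it, Stmn3 31.7% to 33.2%, Stmn1 16.4% to 17.2% and Stmn4 3.23% to 3.56%. With a trend on transcript length subtracted, as described further on, Stmn1 and Stmn4 were each at a log2FC of 0.07 in AdNTF3-Tg against WT. Stmn3 was then at -0.01 and Stmn2 was level with the trend. Whole ganglia hold glia and vessels beside neurons, and in such bulk samples fewer cells of a type and less RNA per cell cannot be told apart.

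Stmn2 (Entrez 20257, chromosome 3, 8509527 to 8561604, plus strand; positions of genes follow GENCODE on the NCBIM37 build) encodes the neuronal stathmin SCG10, which is attached to membranes of the growth cone. Its level was 942.79 FPKM in WT_1, 949.45 in WT_2, 908.21 in the library labelled TRKC+/- and 905.19 in AdNTF3-Tg. Both mutant libraries were below both WT libraries, by a small amount relative to the level. The log2FC was -0.07 ± 0.0537 (SE) in AdNTF3-Tg against WT (95% interval -0.19 to 0.06). The library labelled TRKC+/- gave -0.06 ± 0.0537 against WT (-0.19 to 0.06). These intervals leave room for a decrease of up to 0.19 or an increase of up to 0.06 on the log2 scale. Stmn2 was the steadiest member, with a range of 0.07 on the log2 FPKM scale over the 4 libraries.

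Stmn3 (Entrez 20262, chromosome 2, 181041164 to 181049205, minus strand) encodes SCLIP, another neuronal stathmin. It measured 677.44 FPKM in WT_1, 655.46 in WT_2, 650.07 in the library labelled TRKC+/- and 602.64 in AdNTF3-Tg, so that AdNTF3-Tg was the lowest of the 4. Its log2FC in AdNTF3-Tg against WT was -0.15 ± 0.0657 (SE; 95% interval -0.30 to 0.00; adjusted p = 0.817 by edgeR), the lowest value among the members in this comparison. Against each WT library on its own the log2 ratio was -0.18 (exact 95% counting interval -0.23 to -0.13) with WT_1 and -0.13 (-0.18 to -0.07) with WT_2. In the library labelled TRKC+/- the log2FC against WT was -0.04 (95% interval -0.19 to 0.11). With the trend on transcript length subtracted, Stmn3 was at -0.01 in AdNTF3-Tg against WT, and the lowest member was Dpysl2 at -0.19.

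Stmn1 (Entrez 16765, chromosome 4, 134024235 to 134029758, plus strand) encodes the cytosolic stathmin, which is expressed in many cell types including dividing cells. Its values were 350.45 FPKM in WT_1, 329.39 in WT_2, 335.18 in the library labelled TRKC+/- and 323.64 in AdNTF3-Tg. The WT libraries differed from each other by a log2 ratio of 0.09 (counting interval 0.02 to 0.17), while AdNTF3-Tg differed from WT_1 by -0.13 (-0.20 to -0.05) and from WT_2 by -0.03 (-0.11 to 0.04). Stmn4 (Entrez 56471, chromosome 14, 66963133 to 66980517, plus strand), which encodes the neuronal stathmin RB3, was the least abundant at 69.01 FPKM in WT_1, 70.57 in WT_2, 63.28 in the library labelled TRKC+/- and 67.59 in AdNTF3-Tg. Here the library labelled TRKC+/- was the lowest, with a log2FC against WT of -0.14 (95% interval -0.39 to 0.10). Summed markers of dividing cells were at 2.25 and 2.92 FPKM in WT_1 and WT_2, 3.54 in the library labelled TRKC+/- and 2.59 in AdNTF3-Tg.

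The log2FC farthest from 0 among the members in AdNTF3-Tg against WT was that of Map1a. Map1a (Entrez 17754, chromosome 2, 121115336 to 121136568, plus strand) encodes a large protein of mature axons and dendrites that is cut into a heavy and a light chain. It had 91.22 FPKM in WT_1, 97.76 in WT_2, 90.55 in the library labelled TRKC+/- and 117.09 in AdNTF3-Tg (9128, 9955, 9283 and 11869 reads). AdNTF3-Tg stood above the other libraries, which were close to each other. The log2FC in AdNTF3-Tg against WT was 0.31 ± 0.0672 (SE; 95% interval 0.16 to 0.47), a fold of 1.24, with an adjusted p of 0.817 by edgeR over the 14156 genes. It was the only member whose interval excluded 0 in this comparison (1 of 10), where 5.88% of all genes had an unadjusted p under 0.05. With WT_1 as the control the log2 ratio was 0.37 (counting interval 0.33 to 0.41), and with WT_2 it was 0.26 (0.22 to 0.30), while the WT libraries differed by -0.12 (-0.16 to -0.07). With a trend on transcript length subtracted, as described further on, the log2FC of Map1a in AdNTF3-Tg against WT was 0.17. Dpysl2, at -0.19, was then the member farthest from 0.

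In the library labelled TRKC+/-, Map1a had a log2FC against WT of -0.06 (95% interval -0.22 to 0.09), and AdNTF3-Tg lay 0.38 above the library labelled TRKC+/- (0.20 to 0.56; adjusted p = 0.94 by edgeR). A share of 1.88% of the 11864 stretches of 50 bases in Map1a transcripts also occurred in another protein-coding gene, Ppip5k1, whose exons overlap those of Map1a by 272 bases on the opposite strand. Whether the counting used strand is not given in the sources used here. Ppip5k1 itself had 848 reads in WT_1, 883 in WT_2, 853 in the library labelled TRKC+/- and 923 in AdNTF3-Tg. For the other 9 members this share was 0%.

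Map1b (Entrez 17755, chromosome 13, 100191419 to 100286557, minus strand) encodes the related protein best known from growing axons. Its level was 193.60 FPKM in WT_1, 211.18 in WT_2, 195.28 in the library labelled TRKC+/- and 222.26 in AdNTF3-Tg. AdNTF3-Tg was again the highest, but WT_2 came close to it. The log2FC in AdNTF3-Tg against WT was 0.14 ± 0.0661 (SE; 95% interval -0.01 to 0.29; adjusted p = 0.817 by edgeR), and the log2 ratio was 0.21 with WT_1 and 0.07 with WT_2. The WT libraries themselves were 0.14 apart on the log2 scale (WT_1 against WT_2 -0.14, counting interval -0.17 to -0.11), so the distance to WT_2 was smaller than that between the WT libraries. The ratio of Map1b to Map1a was 2.12 in WT_1, 2.16 in WT_2, 2.16 in the library labelled TRKC+/- and 1.90 in AdNTF3-Tg. With the trend on transcript length subtracted, Map1b in AdNTF3-Tg against WT was level with genes of its length.

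The promoters of Map1a and Map1b are printed because both genes were highest in AdNTF3-Tg, and that of Stmn3 because it was the stathmin with the lowest log2FC there. They are the 250 bases upstream of the start in RefSeq on GRCm38.p6, read 5′ to 3′ on the gene's strand. Such windows were available here for only 4 of the 10 members. Capitals mark 3 motifs: TATAAA, the letters of a TATA box; GGGCGG, the letters of a box bound by the factor Sp1; and CCAAT, the letters of the box of that name. Both strands were searched, so that capitals reading CCGCCC are the Sp1 letters on the opposite strand. The Map1a window is chr2:121289352-121289601 on the plus strand, that of Map1b is chr13:99516603-99516852 on the minus strand, and that of Stmn3 is chr2:181314501-181314750 on the minus strand.
Map1a: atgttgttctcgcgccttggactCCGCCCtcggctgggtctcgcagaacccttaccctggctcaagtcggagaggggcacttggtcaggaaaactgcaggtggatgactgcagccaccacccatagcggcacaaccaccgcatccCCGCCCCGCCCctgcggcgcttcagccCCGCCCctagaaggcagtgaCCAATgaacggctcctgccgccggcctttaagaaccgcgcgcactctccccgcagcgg
Map1b: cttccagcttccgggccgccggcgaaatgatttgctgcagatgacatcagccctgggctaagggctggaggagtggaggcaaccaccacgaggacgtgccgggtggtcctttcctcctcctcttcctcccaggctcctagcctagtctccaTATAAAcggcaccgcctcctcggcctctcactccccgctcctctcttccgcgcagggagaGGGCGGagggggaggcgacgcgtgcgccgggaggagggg
Stmn3: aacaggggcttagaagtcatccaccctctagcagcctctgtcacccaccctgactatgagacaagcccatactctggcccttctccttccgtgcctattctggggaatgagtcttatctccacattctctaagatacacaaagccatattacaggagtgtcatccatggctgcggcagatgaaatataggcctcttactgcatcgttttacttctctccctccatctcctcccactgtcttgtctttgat
The Map1a window held 4 GGGCGG matches, 1 CCAAT and 21 CpG dinucleotides at a GC content of 66%. The Map1b window held 1 TATAAA, 1 GGGCGG and 19 CpG at 66.4%. The Stmn3 window held none of the motifs and 3 CpG at 48.8%. The Map2 window (chr1:66175079-66175328, plus strand) held 5 GGGCGG and 34 CpG at 81.2%. Over 32851 promoter windows of the same length, 32.7% held GGGCGG, 33.8% held at least 1 CCAAT, 12.4% held at least 1 TATAAA, and the median number of CpG was 6. A match of letters is a description of these windows.

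Map2 and Mapt, whose proteins share a family of microtubule-binding repeats and are known from dendrites and axons respectively, summed to 135.3 FPKM in WT_1, 147.6 in WT_2, 145.6 in the library labelled TRKC+/- and 152.7 in AdNTF3-Tg. Map2 (Entrez 17756, chromosome 1, 66221847 to 66489157, plus strand) had 36.98 FPKM in WT_1, 47.70 in WT_2, 38.46 in the library labelled TRKC+/- and 45.44 in AdNTF3-Tg. Its WT libraries were the lowest and the highest of the 4, and both mutant libraries fell between them. WT_1 against WT_2 gave a log2 ratio of -0.38 (counting interval -0.47 to -0.29), the widest gap between WT libraries among the members. The value in AdNTF3-Tg therefore turned on the control, at 0.31 (counting interval 0.22 to 0.40) with WT_1 and -0.07 (-0.16 to 0.01) with WT_2. With both, the log2FC in AdNTF3-Tg was 0.10 (95% interval -0.23 to 0.43), and that of the library labelled TRKC+/- was -0.14 (-0.47 to 0.19), the widest intervals of any member.

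Mapt (Entrez 17762, chromosome 11, 104092704 to 104193404, plus strand) had 98.28 FPKM in WT_1, 99.93 in WT_2, 107.18 in the library labelled TRKC+/- and 107.23 in AdNTF3-Tg. Both mutant libraries were above both WT libraries, by nearly the same amount. The log2FC was 0.12 ± 0.0671 (SE; 95% interval -0.04 to 0.28) in AdNTF3-Tg against WT and 0.11 ± 0.0671 (-0.05 to 0.27) in the library labelled TRKC+/- against WT. These comparisons share their WT libraries. AdNTF3-Tg against the library labelled TRKC+/- gave 0.01 (95% interval -0.17 to 0.19). The mean length of Mapt transcripts, weighted by isoform in the files, was 5300 bases in WT_1, 5292 in WT_2, 5293 in the library labelled TRKC+/- and 5308 in AdNTF3-Tg. The ratio of Mapt to Map2 was 2.66 in WT_1, 2.09 in WT_2, 2.79 in the library labelled TRKC+/- and 2.36 in AdNTF3-Tg, so the WT libraries differed by more than AdNTF3-Tg did from either.

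The collapsin response mediators had a summed level of 174.7 FPKM in WT_1, 161.2 in WT_2, 172.5 in the library labelled TRKC+/- and 173.2 in AdNTF3-Tg, but their individual values ran differently. Dpysl2 (Entrez 12934, chromosome 14, 67421701 to 67487525, minus strand) encodes CRMP2, which carries tubulin to growing ends and is switched off by phosphorylation. It had 44.98 FPKM in WT_1, 42.12 in WT_2, 48.55 in the library labelled TRKC+/- and 39.71 in AdNTF3-Tg. The library labelled TRKC+/- was the highest and AdNTF3-Tg the lowest, with the WT libraries between them. The log2FC was 0.15 ± 0.0871 (SE; 95% interval -0.05 to 0.36) in the library labelled TRKC+/- against WT and -0.13 ± 0.0886 (-0.34 to 0.08) in AdNTF3-Tg against WT. AdNTF3-Tg against the library labelled TRKC+/- gave -0.28 (95% interval -0.52 to -0.05; adjusted p = 0.94 by edgeR).

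Dpysl3 (Entrez 22240, chromosome 18, 43480633 to 43597940, minus strand) encodes CRMP4, a related protein that also bundles actin. Its level was 129.68 FPKM in WT_1, 119.06 in WT_2, 123.99 in the library labelled TRKC+/- and 133.44 in AdNTF3-Tg. AdNTF3-Tg was the highest, with a log2 ratio of 0.04 to WT_1 (counting interval -0.04 to 0.13) and of 0.16 to WT_2 (0.07 to 0.24). The log2FC in AdNTF3-Tg against WT was 0.10 (95% interval -0.10 to 0.30), and the log2 ratio between WT_1 and WT_2 was 0.12 (counting interval 0.03 to 0.20). The ratio of Dpysl3 to Dpysl2 was 2.88 in WT_1, 2.83 in WT_2, 2.55 in the library labelled TRKC+/- and 3.36 in AdNTF3-Tg, so that the mutant libraries lay on opposite sides of a narrow WT range.

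**Figure D2:**
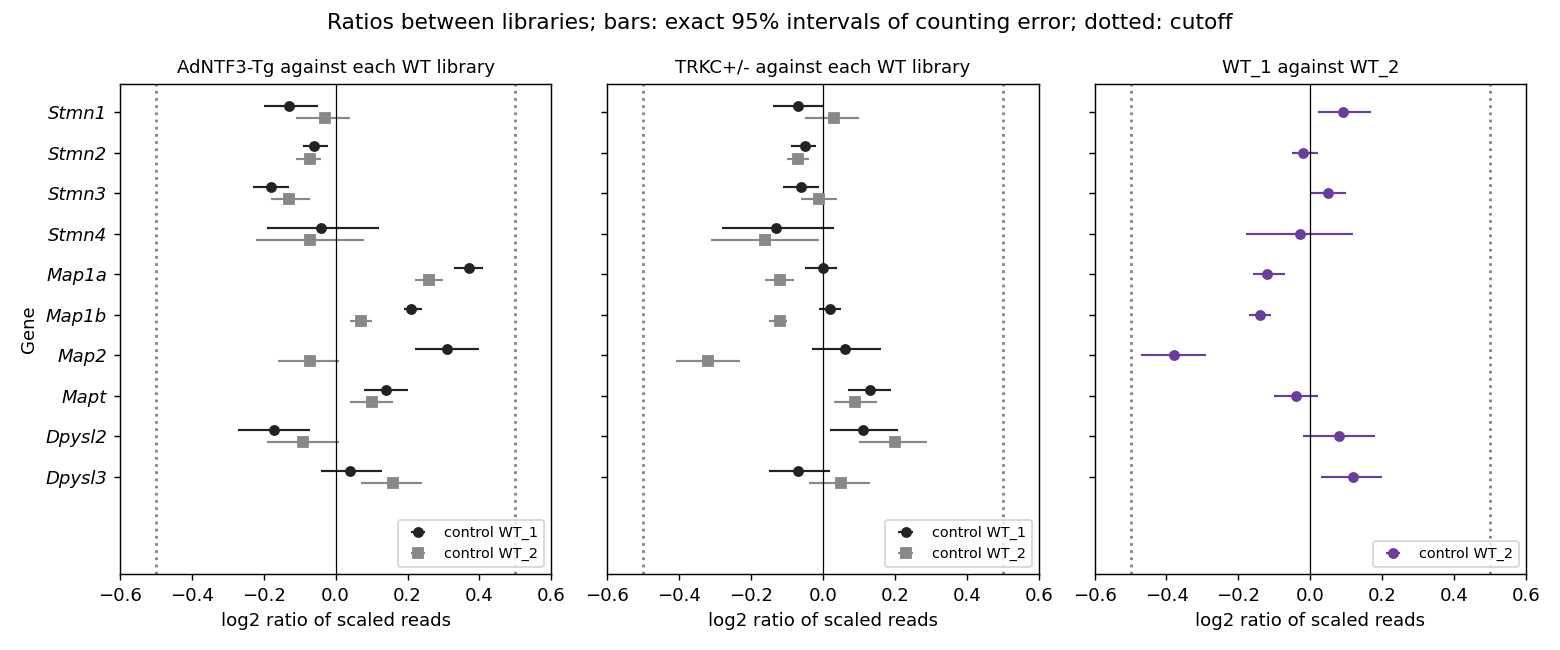
Log2 ratio of scaled reads for each of the 10 genes, in AdNTF3-Tg and in the library labelled TRKC+/- against WT_1 (black circles) and WT_2 (grey squares), and in WT_1 against WT_2 (purple circles). Bars are exact 95% intervals of counting error only and dotted lines mark 0.5 either way, which no gene reached, and the values farthest from 0 are those of Map2 in WT_1 against WT_2 (-0.38) and of Map1a in AdNTF3-Tg against WT_1 (0.37).

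Read against the range of the WT libraries, AdNTF3-Tg was above both for 4 members (Map1a, Map1b, Mapt and Dpysl3), where 34.8% of all genes tested were, and below both for 5 (the 4 stathmins and Dpysl2), where 34.9% were. The library labelled TRKC+/- was above both for 2 members (Mapt and Dpysl2; 31.9% of all genes) and below both for 4 (Stmn2, Stmn3, Stmn4 and Map1a; 31.4%). In AdNTF3-Tg the 4 stathmins had log2FC between -0.15 and -0.05, and the 4 structural genes Map1a, Map1b, Map2 and Mapt had values of 0.10 to 0.31. This split did not hold once a trend on transcript length, described further on, was subtracted: Stmn1 and Stmn4 were then each at 0.07, Stmn3 was at -0.01, and Stmn2 and Map1b were level with the trend. The ratio of summed stathmin to summed MAP1 levels was 7.16 in WT_1, 6.49 in WT_2, 6.85 in the library labelled TRKC+/- and 5.60 in AdNTF3-Tg. This ratio was lowest in AdNTF3-Tg, and in the library labelled TRKC+/- it lay between the WT values.

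The members have many reads, so intervals of counting error, which leave out the variation between mice and pools, were narrow. The counting interval of the log2 ratio excluded 0 for 8 of 10 members in AdNTF3-Tg against WT_1 (28.1% of all genes), for 6 against WT_2 (22.5%), and for 6 in AdNTF3-Tg against the library labelled TRKC+/- (24.0%). It did so for 4 members in the library labelled TRKC+/- against WT_1 (15.6%) and for 7 against WT_2 (21.4%). Between WT_1 and WT_2, which share a genotype, it excluded 0 for 6 of 10 members (22.2% of all genes). Counting intervals that excluded 0 thus also occurred without a difference in genotype label. With the spread between WT pools included, the interval excluded 0 for none of the members in the library labelled TRKC+/- against WT (1.93% of all genes at an unadjusted p under 0.05), and for 3 in AdNTF3-Tg against the library labelled TRKC+/- (Map1a, Map1b and Dpysl2; 4.68%).

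Transcript length moved with the values in AdNTF3-Tg, and to a lesser extent with those between the WT libraries. Among the 6800 genes that averaged 10 FPKM or more, the median log2FC in AdNTF3-Tg against WT was -0.20 for the 683 genes under 1000 bases, -0.12 from 1000 to 1500 bases and -0.05 from 1500 to 2500 bases. It was 0.03 from 2500 to 5000 bases, 0.10 from 5000 to 10000 bases and 0.16 for the 56 genes of 10000 bases or more. In the library labelled TRKC+/- the medians lay between -0.08 and 0.01. Between WT_1 and WT_2, which share a genotype, the median log2 ratio was 0.11 for genes under 1000 bases, 0.03 from 1000 to 1500 bases and -0.03 for those of 10000 bases or more. The stathmins are short (1070 bases for Stmn1, 1136 for Stmn3, 1249 for Stmn4 and 1904 for Stmn2), Map2 and Mapt are long, and Map1a and Map1b are among the longest. In AdNTF3-Tg against WT, 7 of 10 members lay within the quartiles of the genes of their own length, which hold 50% of those genes by definition. Those outside were Map1a and Dpysl3 (above) and Dpysl2 (below). For the library labelled TRKC+/- against WT, 6 of 10 lay within, with Mapt and Dpysl2 above and Stmn4 and Map2 below. Between the mutants 5 of 10 did, with Stmn4, Map1a, Map2 and Dpysl3 above and Dpysl2 below.

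With the trend on length subtracted, the log2FC in AdNTF3-Tg against WT was 0.17 for Map1a instead of 0.31, since genes of its length were at 0.14. Map1b was level with genes of its length, whose trend value was 0.14 as well. Of the stathmins, Stmn1 was then at 0.07, Stmn3 at -0.01 and Stmn4 at 0.07, and Stmn2 was level with the trend. Dpysl2 was at -0.19 and Dpysl3 at 0.15, farther from 0 than before. In AdNTF3-Tg against the library labelled TRKC+/-, the values farthest from 0 after subtraction were those of Dpysl2 (-0.33) and Map1a (0.21, from 0.38), while Map1b went from 0.19 to 0.02. What gave rise to the trend on length was not tested.

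**Figure D3:**
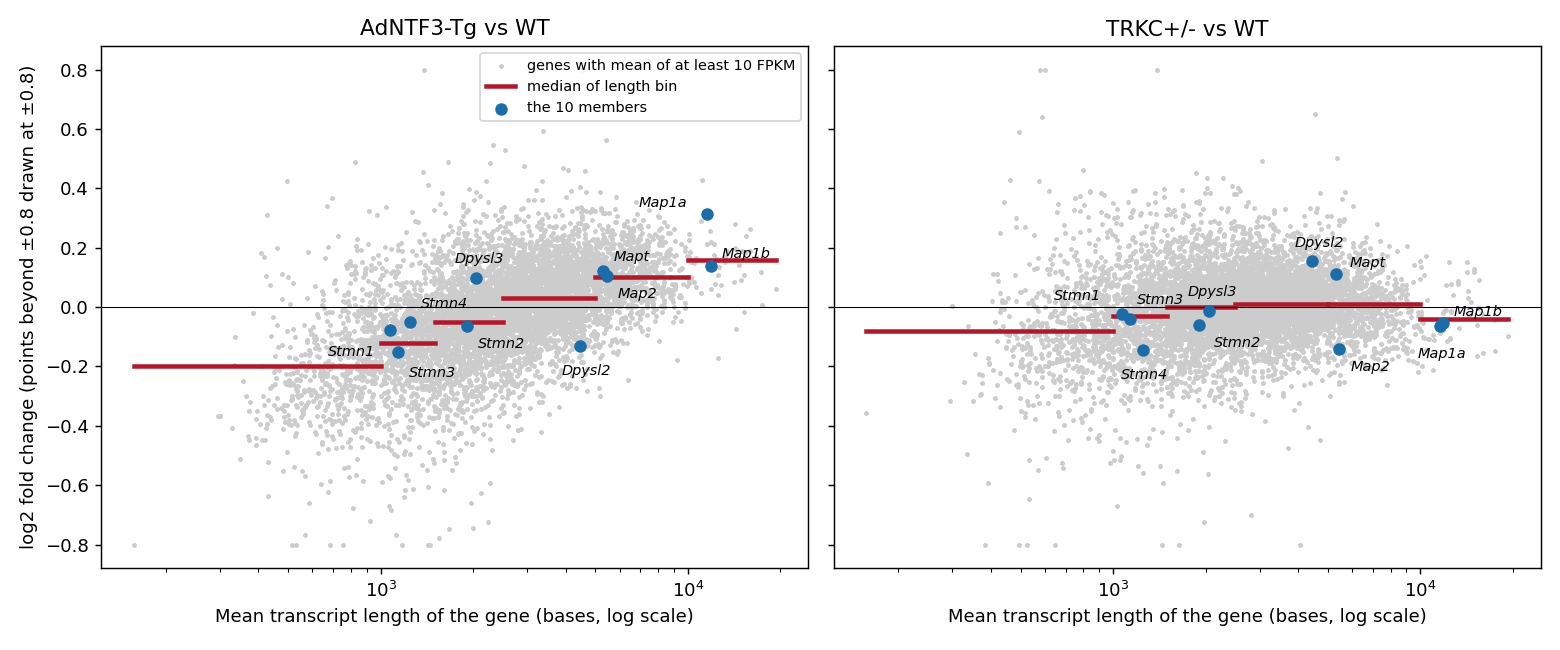
Log2FC of the genes averaging 10 FPKM or more against mean transcript length (bases, log axis), in AdNTF3-Tg against WT (left) and in the library labelled TRKC+/- against WT (right), with grey points for genes, red lines for the median of each length bin and blue points for the 10 genes. On the left the red lines climb from -0.20 to 0.16 and most blue points follow them, with Map1a and Dpysl3 above and Dpysl2 below, and on the right the lines stay between -0.08 and 0.01.

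The patterns of the members over the 4 libraries were compared by the Euclidean distance between centred log2(FPKM + 0.1) values, as a description with 4 points. Map1a and Map1b were each nearest to the other among the members (0.155), as were Stmn1 and Stmn3 (0.0683), Stmn2 and Stmn4 (0.079), and Mapt and Dpysl3 (0.143). Map2 was nearest to Map1b (0.182) and Dpysl2 to Stmn3 (0.167). Map1a and Map2 had the widest ranges of the members, each 0.37 on the log2 scale after rounding. The range of Map2 was set by the WT libraries, and that of Map1a, slightly the wider before rounding, by AdNTF3-Tg and the library labelled TRKC+/-. Of 6799 genes that averaged 10 FPKM or more, the 3 nearest to Map1a were Ranbp6 (distance 0.0454), Xiap (0.0504), an inhibitor of caspases, and Irgq (0.0519). Ranbp6 had 15.96 FPKM in WT_1, 16.97 in WT_2, 16.39 in the library labelled TRKC+/- and 20.68 in AdNTF3-Tg.

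Other regulators of microtubules were taken from 7 lists with 59 genes in all, each of which passed the filter on low counts. None was called by edgeR in any of the 3 comparisons. In AdNTF3-Tg against WT, 1 of the 59 was higher and 4 were lower at an absolute log2FC of 0.5 (10.1% of all genes passed this cutoff either way), with a median of 0.07. In the library labelled TRKC+/- against WT, 0 of 59 passed it and the median was 0.01, with values from -0.36 to 0.37. Of the 5 that passed in AdNTF3-Tg, Agbl5, a carboxypeptidase that trims glutamate chains from tubulin, was the only one that averaged 1 FPKM or more. It had 64 reads in WT_1, 57 in WT_2, 78 in the library labelled TRKC+/- and 40 in AdNTF3-Tg, with a log2FC in AdNTF3-Tg of -0.60 (95% interval -1.31 to 0.12). The others, named after their values were seen, were Map6d1 (0.64), Dcx (-0.71), Fignl1 (-0.94) and Vash2 (-1.11), with between 6 and 46 reads per library.

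Among the 16 other structural proteins, the most abundant was Tppp3, a small protein that bundles microtubules. It had 1370.18 FPKM in WT_1, 1304.13 in WT_2, 1279.45 in the library labelled TRKC+/- and 1165.15 in AdNTF3-Tg. Its log2FC in AdNTF3-Tg against WT was -0.21 (95% interval -0.35 to -0.06). The trend on length was not subtracted from the values of the related genes. Tppp3 is short by its reads per FPKM, and in this comparison short genes had negative medians. These were -0.20 under 1000 bases and -0.12 from 1000 to 1500 bases. Map4, the widely expressed relative of MAP2 and tau, was at 155.09, 169.76, 165.97 and 180.68 FPKM in the same order, with a log2FC of 0.14 (-0.03 to 0.30). The list had a median of 0.11 in AdNTF3-Tg and 0.03 in the library labelled TRKC+/-, with 1 of 16 higher and 1 lower past the cutoff in AdNTF3-Tg.

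The 3 other collapsin response mediators were led by Crmp1 (log2FC in AdNTF3-Tg -0.05, in the library labelled TRKC+/- -0.02) and Dpysl5 (0.14 and 0.06), and none passed the cutoff. The 3 minus-end proteins, which cap and stabilize the minus ends of microtubules, had a median of 0.23 in AdNTF3-Tg and -0.01 in the library labelled TRKC+/-. Camsap1 had 13.51 FPKM in WT_1, 13.81 in WT_2, 13.61 in the library labelled TRKC+/- and 16.04 in AdNTF3-Tg (log2FC 0.23, 95% interval 0.01 to 0.46), and Camsap2 had a log2FC of 0.15 (-0.08 to 0.38). These values also hold the trend on length, and genes from 5000 to 10000 bases had a median of 0.10 in AdNTF3-Tg against WT. The 8 plus-end proteins, led by Mapre2 and Mapre3, which track growing ends, stayed within -0.05 to 0.08 in AdNTF3-Tg.

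Among the 7 severing and depolymerizing proteins, 1 (Fignl1) passed the cutoff in AdNTF3-Tg, and the most abundant were the depolymerizing kinesin Kif2a (log2FC 0.04) and the katanin relative Katnal1 (0.06). The 12 genes of the kinase list, which holds activating subunits of CDK5 beside kinases, had a median of 0.07 in AdNTF3-Tg. Their values ran from -0.18 to 0.16, and the most abundant were Gsk3a (0.07) and Mapk9 (0.00). Among the 10 genes of tubulin-modifying enzymes and their partners, 2 (Agbl5 and Vash2) were lower past the cutoff in AdNTF3-Tg. The most abundant, the tubulin tyrosine ligase Ttl (0.05) and the deglutamylase Agtpbp1 (-0.04), were close to 0.

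**Figure D4:**
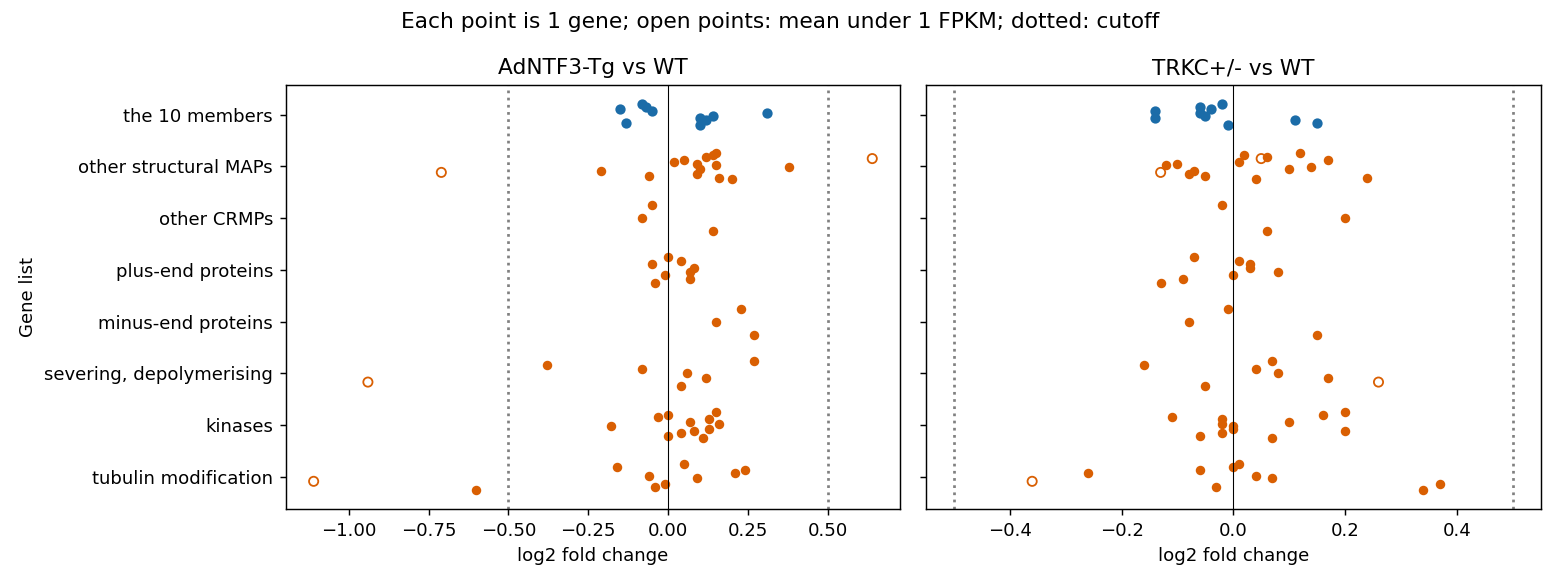
Log2FC of the 10 genes (blue) and of 59 other microtubule regulators by list (orange), in AdNTF3-Tg against WT (left) and in the library labelled TRKC+/- against WT (right, on a narrower axis), with 1 point for each gene. Open points are genes with a mean under 1 FPKM and dotted lines mark 0.5 either way, passed on the left by 5 of the 59 genes, 4 of them open, and on the right by none.

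Markers of cell types were read beside these values, as summed FPKM in WT_1, WT_2, the library labelled TRKC+/- and AdNTF3-Tg in that order. Sympathetic neuron markers were at 10017, 9859, 10167 and 9513, with 0 of 12 past the cutoff in either mutant. General neuronal markers, led by Uchl1, were at 4971, 5010, 5073 and 4852, with 1 of 9 past it, in the library labelled TRKC+/- and on 10 to 26 reads per library. Both sums were lowest in AdNTF3-Tg, whereas the median log2FC of the single genes there was 0.03 for the sympathetic and 0.11 for the general neuronal markers, so the sums, which the most abundant genes dominate, and the medians differed in direction. Glial markers, led by Pmp22, were at 1136, 968.8, 1106 and 1069, with 0 of 8 past the cutoff. Fibroblast markers, led by Dcn, were at 295.4, 222.9, 265.9 and 250.6 (0 of 5), and endothelial markers, led by Pecam1, at 30.35, 27.05, 30.76 and 26.12 (0 of 5).

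Markers of adipocytes, skeletal muscle and macrophages differed more between libraries than the members did. Adipocyte markers, led by Fabp4, were at 326.5, 297.9, 167.4 and 233.0, with 2 of 5 lower past the cutoff in each mutant. Skeletal muscle markers, led by Acta1, were at 69.42, 2.33, 31.80 and 26.57, with 2 of 5 lower in each mutant, and differed most between the WT libraries. Macrophage markers, led by Lyz2, were at 159.8, 154.7, 119.5 and 114.9, with 3 of 6 lower in the library labelled TRKC+/- and 1 of 6 lower in AdNTF3-Tg. Sensory neuron markers, led by Scn10a, summed to between 0.84 and 2 FPKM, and 2 of 5 were tested, on 3 to 39 reads per library. Both were higher past the cutoff in AdNTF3-Tg, with intervals that included 0, and 1 was higher and 1 lower in the library labelled TRKC+/-. Of the 5 markers of dividing cells, led by Birc5, 3 were tested, 1 higher and 1 lower in AdNTF3-Tg and 1 lower in the library labelled TRKC+/-. Those past the cutoff had 8 to 24 reads per library. Over all genes, 10.1% passed the cutoff in AdNTF3-Tg against WT and 7.30% in the library labelled TRKC+/- against WT. No marker was at 0 in every library. The part of these shifts in the values of the members was not tested.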

How the data were processed

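Polyadenylated RNA from pooled T1–T4 SG was sequenced in 4 libraries (WT, n = 2; TRKC+/-, n = 1; AdNTF3-Tg, n = 1), grouped by the genotype of the labels. Single-end reads were filtered with SOAPnuke and mapped with HISAT2. The paper's methods name mm9, the submitters' processing notes mm10 and RSEM, and the tables carry no coordinates. The deposited tables give each gene an expected count of reads, an FPKM value that the authors normalized to length and library, and a length in bases. All expected counts of the members were whole.

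Symbols came from RefSeq (GRCm38.p6; 99.7% of identifiers). Rounded counts were filtered with filterByExpr, scaled by TMM and tested two-sided with edgeR's quasi-likelihood test (edgeR 4.0.16, R 4.3.3) in a fit of all 4 libraries by group, with Benjamini-Hochberg adjustment over 14156 genes and calls at 0.05. Nothing states that the WT pools were replicates. P-values rest on the spread between them, which edgeR moderates with that of other genes. The spread between the WT pools may be technical or, since each mutant line had its own WT mice, hold differences of line or litter. Log2FC are unshrunken and SE were derived from the F statistic. A cutoff of 0.5 was counted without a test. Ratios of library pairs have exact Clopper-Pearson 95% intervals, which cover counting error only. The trend on length was a loess fit (span 0.5). The code was tested on simulated data. DESeq2 1.42.0, other scalings, filters, pseudocounts and a cutoff of 0.25 were alternatives.

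The members and lists were chosen with earlier results of these data known. All members are named, as are Ntrk3, Ntf3, the 2 most abundant genes of each related list and those past 0.5 that averaged 1 FPKM or more, the top gene of each marker list, and the 3 genes most like the widest-ranging member.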

Additional observations from a re-analysis of the deposited data

How the results depend on the processing

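No member reached an absolute log2FC of 0.5 under any alternative run (0 of 80 values in AdNTF3-Tg against WT, 0 of 80 in the library labelled TRKC+/- against WT and 0 of 60 between the mutants). At a cutoff of 0.25, 1 member passed in AdNTF3-Tg against WT (Map1a), 2 in AdNTF3-Tg against the library labelled TRKC+/- (Map1a and Dpysl2) and 1 between WT_1 and WT_2 (Map2). The median log2FC of the members in AdNTF3-Tg against WT was between -0.05 and 0.00 when 1 WT library was left out (-0.05 without WT replicate 1, 0.00 without WT replicate 2). In the library labelled TRKC+/- against WT it was between -0.04 and -0.03 when 1 WT library was left out, and -0.02 with the trend on length removed. Signs of single members changed in 10 of these values, none of them called. With the trend on length removed, Stmn1 and Stmn4 were each at 0.07 in AdNTF3-Tg against WT, Stmn1 was at 0.03 in the library labelled TRKC+/-, and Stmn1 was at 0.04 and Mapt at -0.06 between the mutants. Without WT replicate 1, Map2 was at -0.07 in AdNTF3-Tg, and Stmn1 at 0.03 and Dpysl3 at 0.05 in the library labelled TRKC+/-. Without WT replicate 2, Map1b was at 0.01 and Map2 at 0.06 in the library labelled TRKC+/-. The number of all genes called in that library against WT was 2 with DESeq2 size factors, 2 with DESeq2 and 0 without a filter, and 0 were called between the mutants without a filter, where more genes were tested. No paired analysis was possible, with 1 library per mutant and no label that ties a WT library to a mutant line. With 1 library per mutant, the fit could not be run without it.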
